A study of Mus musculus with 7 samples.

Results

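Smooth muscle and myofibroblasts contract with a set of proteins that overlaps only in part with the sarcomere of skeletal and cardiac muscle. The 10 genes described here encode the smooth muscle actins (Acta2, Actg2), the smooth muscle myosin heavy chain (Myh11), the kinase that switches that myosin on (Mylk), and proteins that bind and regulate actin filaments (Tagln, Cnn1, Cald1, Smtn, Lmod1, Tpm2). They were chosen by name: every array probe whose gene name is one of the 10 was taken, which gave 14 probes of the 55681 on the array and 10 of its 34836 gene names. The question asked of them was whether they follow the genes of striated muscle across the cell populations or depart from them.

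In smooth muscle, calcium and calmodulin activate myosin light chain kinase, which phosphorylates the myosin light chain and so starts contraction, while calponin, caldesmon and tropomyosin act on the thin filament. Vessel walls, the arrector pili muscle of the hair follicle and the dermal sheath around the follicle carry this apparatus in skin, and fibroblasts that turn into myofibroblasts during wound repair take on part of it, alpha smooth muscle actin (Acta2) first of all. Serum response factor, which binds the CArG box, with its partner myocardin drives many of these genes, and the same factor acts on the skeletal and cardiac actin genes.

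The data come from a study of cells of the mouse dermis that can form muscle, with 7 single-colour arrays, 1 for each cell population. Cspg4+ cells were taken from B6,FVB-Tg(Cspg4-cre)1Akik/J mice, in which regulatory DNA of Cspg4, a pericyte proteoglycan gene, drives Cre, and they carry no Sdc4 label. Sdc4+ cells (n = 3) were Myf5SOR+ cells of B6.129S4-Myf5tm3(cre)Sor/J mice, which have Cre at the locus of the myogenic regulator Myf5, Cspg4- cells of the Cspg4-cre mice, and cells of the outbred stock Crl:CD1(ICR), called CD1. Sdc4- cells (n = 3) were B195AP+ cells of B195AP-Cre mice, for which no driver is given, and again Cspg4- and CD1 cells. Sdc4 encodes syndecan-4, a surface proteoglycan of satellite cells. Cre labels mark descent from cells that once used a driver, not its present use, and CD1 cells carry no such label. The labels give 8 to 10 animals and 10 to 200 ng of RNA for a population, and no age, treatment or sorting procedure. Replicates of a group differ in mouse line, so p-values measure the spread between arrays of different lines.

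All 7 arrays lay on 1 slide and were scanned once. Sdc4+ arrays (3) took slide row 1 and the other 4 took row 2, so slide row and Sdc4 label cannot be told apart. Between 45.9% and 57.2% of spots were well above background, most on the Cspg4+ array. The B195AP+ array has streaks: in a corner bounded by spot row 200 and spot column 130, 6.63% of bright spots were more than 4-fold below the median of the other arrays, against 0.0786% to 0.597% in that region of the other arrays. That region holds both Mylk spots, 1 of the Smtn, Cald1 and Tpm2 spots each, and 5 of the 10 Acta2 spots.

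Of the probes that read coding sequence, 3 are shown: the Myh11 probe because the gene defines mature smooth muscle, and the Tpm2 probes because they check each other on a member measured everywhere. The Myh11 probe, on the minus strand at chr16:14202190-14202249 of mm9, never left background. The Tpm2 probes lie on the minus strand at chr4:43532262-43532321 and chr4:43531276-43531335 of mm9, were bright everywhere, and read different stretches of the tropomyosin message. All are 5′ to 3′ as on the array, 60 bases long, in mm9 per the file headers.
Myh11 probe: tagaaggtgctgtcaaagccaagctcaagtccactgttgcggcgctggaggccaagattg
Tpm2 first probe: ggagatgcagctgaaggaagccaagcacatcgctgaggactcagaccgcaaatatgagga
Tpm2 second probe: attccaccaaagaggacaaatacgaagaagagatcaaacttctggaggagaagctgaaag

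In every population 6 members were measured, and in none the other 4. Acta2, Tagln, Cald1, Tpm2, Smtn and Mylk were well above background on 7 of 7 arrays with all their probes. Myh11, Cnn1, Actg2 and Lmod1, which mark mature smooth muscle, were not well above background on any array. Levels below are log2 of the processed signal minus the 75th percentile of the same array. A level of 0 is thus the level below which 75% of the array's probes lie, and levels of different probes are not set against each other. That percentile ran from 6.80 to 7.71 on the log2 scale and was highest on the CD1 Sdc4+ array. The order of populations depends in part on this scaling.

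The 4 members at background had 1 probe each. Their processed signals lay between 2.29 and 10.4 units, while the lowest signal called well above background on an array lay between 7.34 and 13.9 units. Actg2, the enteric smooth muscle actin, had a signal of 8.16 in Cspg4+ cells and 10.4 in CD1 Sdc4- cells, and 2.44 to 2.86 in the others. Cnn1 (calponin 1) reached 10.2 in CD1 Sdc4+ cells. Myh11 had its highest signal, 5.76, in Cspg4+ cells, as did Lmod1 (leiomodin 1) with 6.44. None of these signals was called above background, so no fold change is given, and with 1 probe per gene a probe that fails cannot be told apart from a gene that is silent. In such samples fewer cells of a type and less RNA per cell cannot be told apart.

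**Figure D1:**
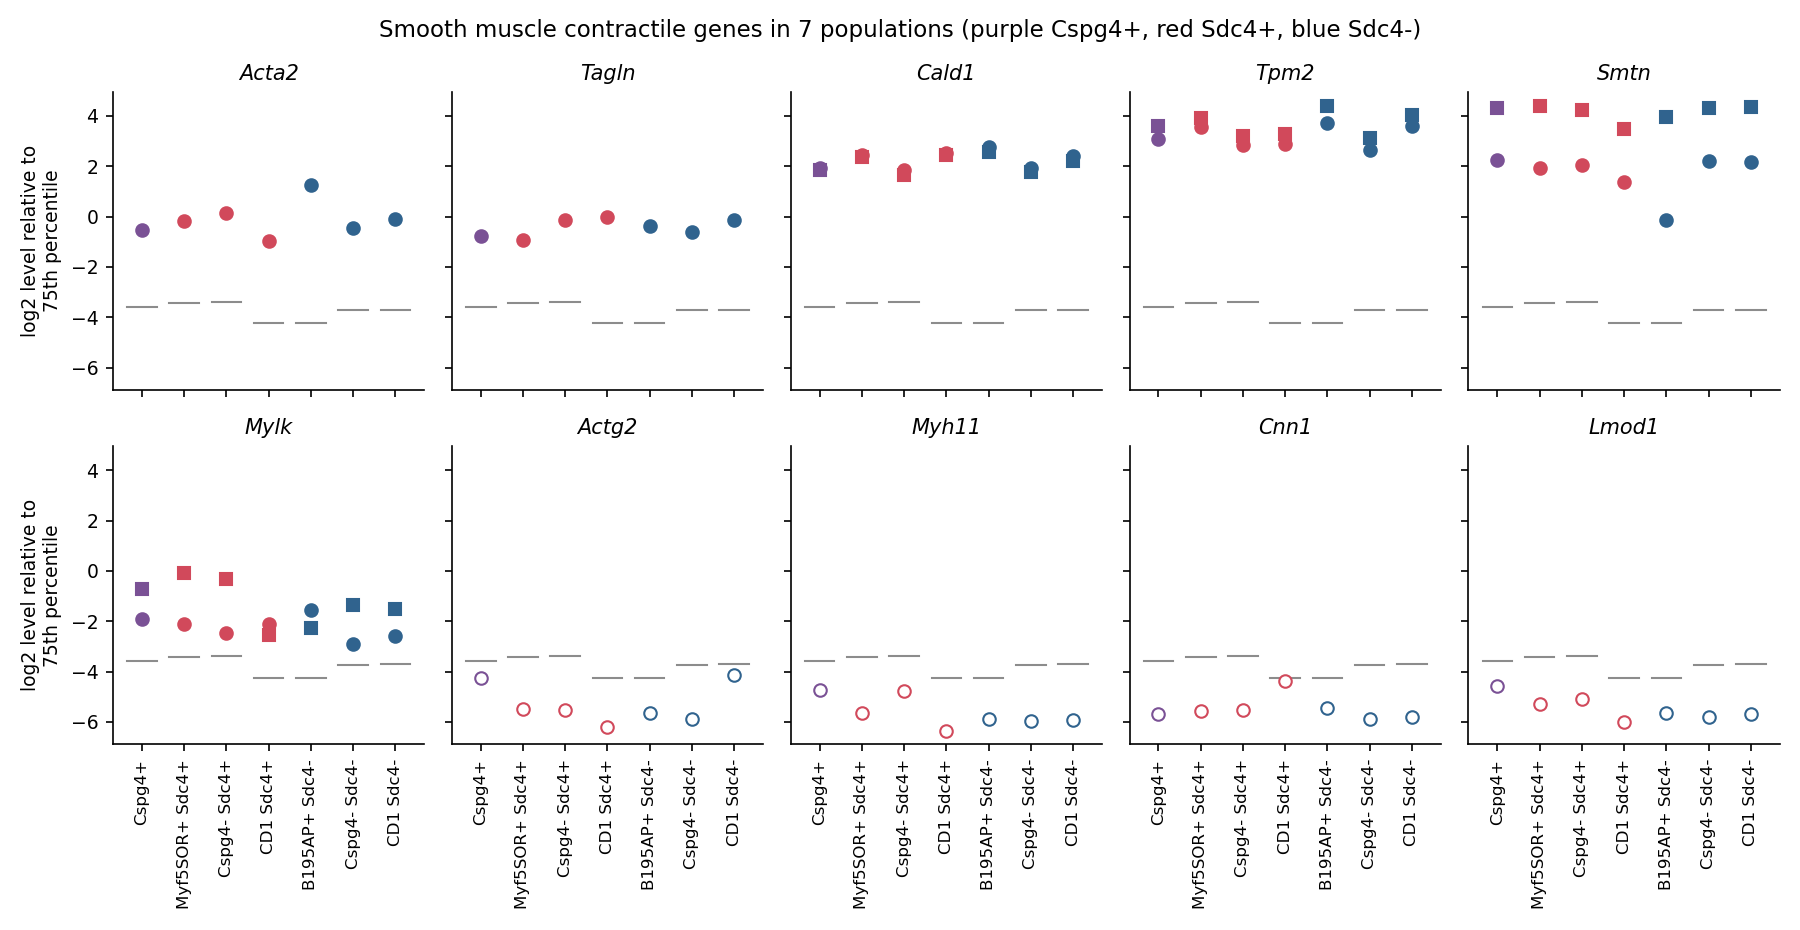
Level of each smooth muscle contractile gene (log2 relative to the array's 75th percentile, vertical axis) in the 7 populations, 1 array each. Filled symbols are well above background, open circles are not, squares and circles in a panel are different probes, and the grey bar is the lowest level called well above background on that array. Actg2, Myh11, Cnn1 and Lmod1 hold open circles throughout, and Acta2 is highest in B195AP+ Sdc4- cells at 1.24.

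Acta2 was the smooth muscle actin measured in these cells, and B195AP+ cells had the most of it. Its level was -0.54 in Cspg4+ cells. It was -0.16 in Myf5SOR+, 0.15 in Cspg4- and -0.98 in CD1 cells of the Sdc4+ group, against 1.24 in B195AP+, -0.47 in Cspg4- and -0.11 in CD1 cells of the Sdc4- group. B195AP+ cells were highest and CD1 Sdc4+ cells lowest, 4.65-fold apart, and the Sdc4+ and Sdc4- values overlapped. Before scaling, the processed signal was lowest in Myf5SOR+ cells (100.6, against 105.9 in CD1 Sdc4+ cells). The probe is spotted 10 times per array, and the SD between its spots was 0.0793 to 0.133 on the other arrays and 0.470 on the B195AP+ array. On that array the spots in the streaked region averaged 1.11 and those outside it 1.36, so it was highest on the spots outside the streaks too. Between neighbours in the order, Cspg4+ (-0.54) and Cspg4- Sdc4- (-0.47) cells differed by less than the SD between spots, as did CD1 Sdc4- (-0.11) and Myf5SOR+ (-0.16) cells.

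Tagln encodes transgelin (SM22-alpha), an actin-bundling protein of smooth muscle. Its level was -0.79 in Cspg4+ cells, then -0.92, -0.16 and -0.03 in the Myf5SOR+, Cspg4- and CD1 cells of the Sdc4+ group, against -0.39, -0.62 and -0.13 in the B195AP+, Cspg4- and CD1 cells of the Sdc4- group. The Sdc4- values lay inside the range of the Sdc4+ values, and Myf5SOR+ cells were lowest. Its range over the 7 arrays was 1.85-fold, close to that of the median gene above background everywhere (0.89 against 0.88 on the log2 scale).

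Cald1 encodes caldesmon, which holds actin and myosin apart on the thin filament and also occurs in a non-muscle form. Its level was 1.93 in Cspg4+ cells, then 2.45, 1.84 and 2.54 in Myf5SOR+, Cspg4- and CD1 Sdc4+ cells, against 2.77, 1.92 and 2.40 in B195AP+, Cspg4- and CD1 Sdc4- cells. The 3 populations of the Cspg4-cre line were the lowest on this probe, between 1.84 and 1.93. The second Cald1 probe gave the same profile, with r = 0.99 between the probes over the 7 arrays, which share their RNA. That probe also put the Cspg4-cre line lowest, between 1.65 and 1.86.

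Tpm2 encodes beta-tropomyosin, which striated as well as smooth muscle uses through alternative exons. Its first probe read 3.61 in Cspg4+ cells, then 3.92, 3.20 and 3.27 in Myf5SOR+, Cspg4- and CD1 Sdc4+ cells, against 4.41, 3.10 and 4.04 in B195AP+, Cspg4- and CD1 Sdc4- cells. Its second probe, outside the streaked region, had r = 0.97 with the first and put the same population, B195AP+, highest at 3.71. Tpm2 was therefore high in B195AP+ and CD1 Sdc4- cells and in Myf5SOR+ cells, which lie in different Sdc4 groups.

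Smtn encodes smoothelin, which marks contractile smooth muscle but also has longer and shorter forms. Its brighter probe read 4.32 in Cspg4+ cells, then 4.37, 4.25 and 3.48 in Myf5SOR+, Cspg4- and CD1 Sdc4+ cells, against 3.95, 4.31 and 4.33 in B195AP+, Cspg4- and CD1 Sdc4- cells. CD1 Sdc4+ cells stood below the rest, and 4 of the other 6 lay within 4.25 to 4.33. Before scaling, the processed signal in CD1 Sdc4+ cells (2328) lay between those of Cspg4- (2113) and Myf5SOR+ (2332) Sdc4+ cells. The second Smtn probe read -0.13 in B195AP+ cells and 1.39 to 2.25 in the others. Its spot lies in the streaked region, and the r between the Smtn probes was 0.54 with the B195AP+ array and 0.91 without it.

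Mylk, the myosin light chain kinase, had the widest range of the 6. The probe for its reference transcript read -0.73 in Cspg4+ cells, then -0.08, -0.32 and -2.54 in Myf5SOR+, Cspg4- and CD1 Sdc4+ cells, against -2.25, -1.35 and -1.50 in B195AP+, Cspg4- and CD1 Sdc4- cells. Myf5SOR+ and Cspg4- Sdc4+ cells were highest and CD1 Sdc4+ cells lowest, a 5.48-fold range. The second Mylk probe, matched to another transcript, stayed between -2.89 and -1.56 and had its highest value in B195AP+ cells. The r between the Mylk probes was -0.23 with the B195AP+ array and 0.13 without it, so they do not give 1 profile for the gene, and the results for Mylk below hold for the first probe.

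The members did not move as a block. Over the 15 pairs of the 6 measured members, r over the 7 arrays ran between -0.59 (Mylk with Cald1) and 0.79 (Mylk with Smtn), with a median of 0.02. Acta2 went with Tpm2 at r = 0.69 and Cald1 with Tpm2 at r = 0.73. These values share their arrays and scaling, and are descriptions of 7 points. The range of Mylk was larger than that of 95.1% of the 16321 genes above background on every array, and that of Acta2 larger than 93.3%. Tpm2 stood at 75.4%, Cald1 at 54.0%, and Tagln and Smtn at 50.8%.

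Between Sdc4+ and Sdc4- cells none of the 6 measured members changed by the test, and the striated genes were set apart from them by the size of their differences. In limma with 3 group means, 0 of 19761 genes passed an adjusted p of 0.05, which is 0% (smallest adjusted p = 0.221), and 1741 genes or 8.81% had an unadjusted p under 0.05. Acta2 averaged -0.33 ± 0.58 in Sdc4+ cells and 0.22 ± 0.90 in Sdc4- cells (SD, n = 3 each), a difference of -0.55 (SE 0.51, adjusted p = 0.771, 95% interval -1.75 to 0.66), and -0.04 without the B195AP+ array. Tpm2 had a difference of -0.39 (SE 0.39, interval -1.30 to 0.53), which was -0.11 without the B195AP+ array or the streaked region and -0.76 without the Cspg4- Sdc4- array. Mylk had 0.72 (SE 0.66, interval -0.86 to 2.30), which was 1.499 without the CD1 Sdc4+ array and 0.27 without the Myf5SOR+ array. With mouse line as a random block the Mylk difference was 0.37, and as a fixed block -0.0027.

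The other differences were closer to 0. Smtn had -0.17 (SE 0.29, interval -0.85 to 0.52), Cald1 -0.09 (SE 0.30, interval -0.81 to 0.64) and Tagln 0.01 (SE 0.29, interval -0.69 to 0.71). The adjusted p of the 6 lay between 0.767 and 0.994. For Tagln, Cald1 and Smtn the intervals end within a 2-fold change in either direction. Those of Acta2, Tpm2 and Mylk reach past 2-fold on 1 side, so changes of that size are not bounded by these arrays. Of the 6, 4 were lower and 2 higher in Sdc4+ cells, beside 55.8% of all genes lower. In 0 of the 6 did the groups fail to overlap, beside 15.6% of all genes. Their median difference was -0.13 and that of all genes -0.05.

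Of 42 striated sarcomere genes on the array, 31 passed the filter of 3 arrays well above background. Of these, 29 were lower in Sdc4+ cells, 24 of them without overlap (9.46% of all genes), and their median difference was -3.02. None passed limma without a block, and Myh3 did with mouse line as a random block (adjusted p = 0.0475). Only 12 of the 31 were above background on all 3 Sdc4+ arrays, against 29 on all 3 Sdc4- arrays, so most passed the filter through the Sdc4- arrays and the size of the difference rests in part on background values. Among the 11 striated genes above background on all 7 arrays the median was -1.04. The embryonic myosin heavy chain Myh3, above background on 1 of 3 Sdc4+ arrays, averaged -4.14 ± 1.34 in Sdc4+ and 2.49 ± 1.35 in Sdc4- cells (SD, n = 3 each). Of the tested sarcomere genes all but Mylk2 and Myl3 had differences below 0, while the smooth muscle members stood on both sides of 0.

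**Figure D2:**
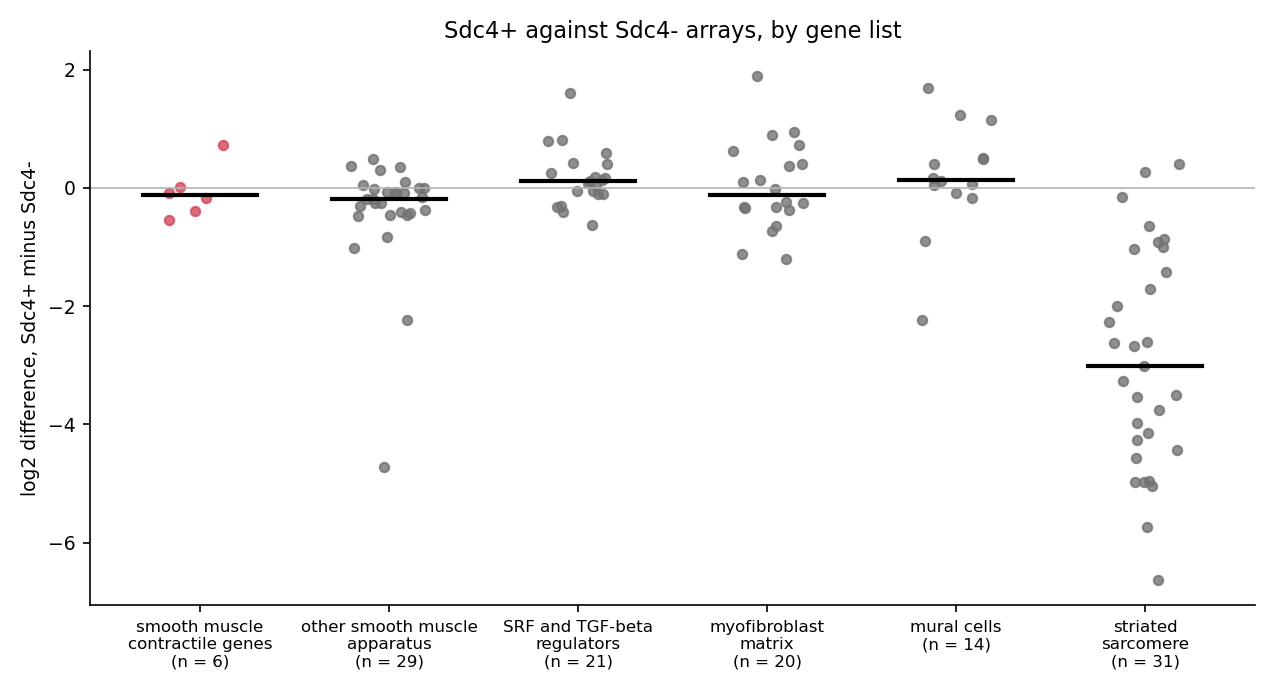
Log2 difference, Sdc4+ minus Sdc4- arrays (3 each), of every gene that passed the filter in 6 of the gene lists, 1 point per gene with the list's median as a black bar. The smooth muscle contractile genes lie between -0.55 and 0.72, and 29 of 31 striated genes lie below 0, with a median of -3.02. Most of these striated genes passed the filter through the Sdc4- arrays.

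Each member was also read against the striated genes of its own array, as its level minus the median of the centred striated genes. With the 11 striated genes above background everywhere, this relative level was higher in Sdc4+ than in Sdc4- cells for all 6 members, by 0.77 (Acta2) to 2.04 (Mylk) on the log2 scale. The 2-sided exact permutation p over 20 splits of the arrays was between 0.1, the smallest they can give, and 0.5, so the design cannot reach the threshold. The members' own levels had exact permutation p between 0.5 and 1, so the relative difference is carried mainly by the striated median, which all 6 share. Read against all 31 tested striated genes, most of which passed the filter through the Sdc4- arrays, the differences were 2.36 to 3.63 and are given as a description.

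Across the 7 arrays r between each member and the median of the 31 striated genes was at most 0.32. That median stood at -0.55 in Cspg4+ cells and at -1.50, -1.45 and -1.04 in Myf5SOR+, Cspg4- and CD1 Sdc4+ cells. It stood at 0.44, 1.17 and 3.12 in B195AP+, Cspg4- and CD1 Sdc4- cells. Over the 7 arrays r was 0.32 for Tpm2, 0.25 for Smtn, 0.24 for Tagln, 0.14 for Acta2, 0.13 for Cald1 and -0.36 for Mylk, and Spearman's rho ran between -0.54 and 0.29. Without the CD1 Sdc4- and Cspg4- Sdc4- arrays, the farthest from the median, r was 0.71 for Tpm2, 0.61 for Acta2 and 0.49 for Cald1, and -0.61 for Mylk. These rest on 5 arrays, of which B195AP+ is the only Sdc4- one. Most of the 31 striated genes passed the filter through the Sdc4- arrays. With the median of the 11 above background everywhere, r over the 7 arrays was 0.43 for Tpm2, 0.29 for Tagln and 0.26 for Cald1. It was 0.25 for Smtn, 0.23 for Acta2 and -0.31 for Mylk. The median of these 11 genes stood at -0.59 in Cspg4+ cells. That lies inside the range of the Sdc4+ cells, which was -0.62 to -0.47. CD1 Sdc4- cells had the highest striated level by far and were not the highest population for any of the 6 members. They came next after the highest for Smtn (4.33 against 4.37), Tagln (-0.13 against -0.03) and Tpm2 (4.04 against 4.41). The Smtn values differ by less than 0.0961, the SD that repeated spots give for a difference. For Acta2, Cald1 and Mylk these cells ranked lower.

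**Figure D3:**
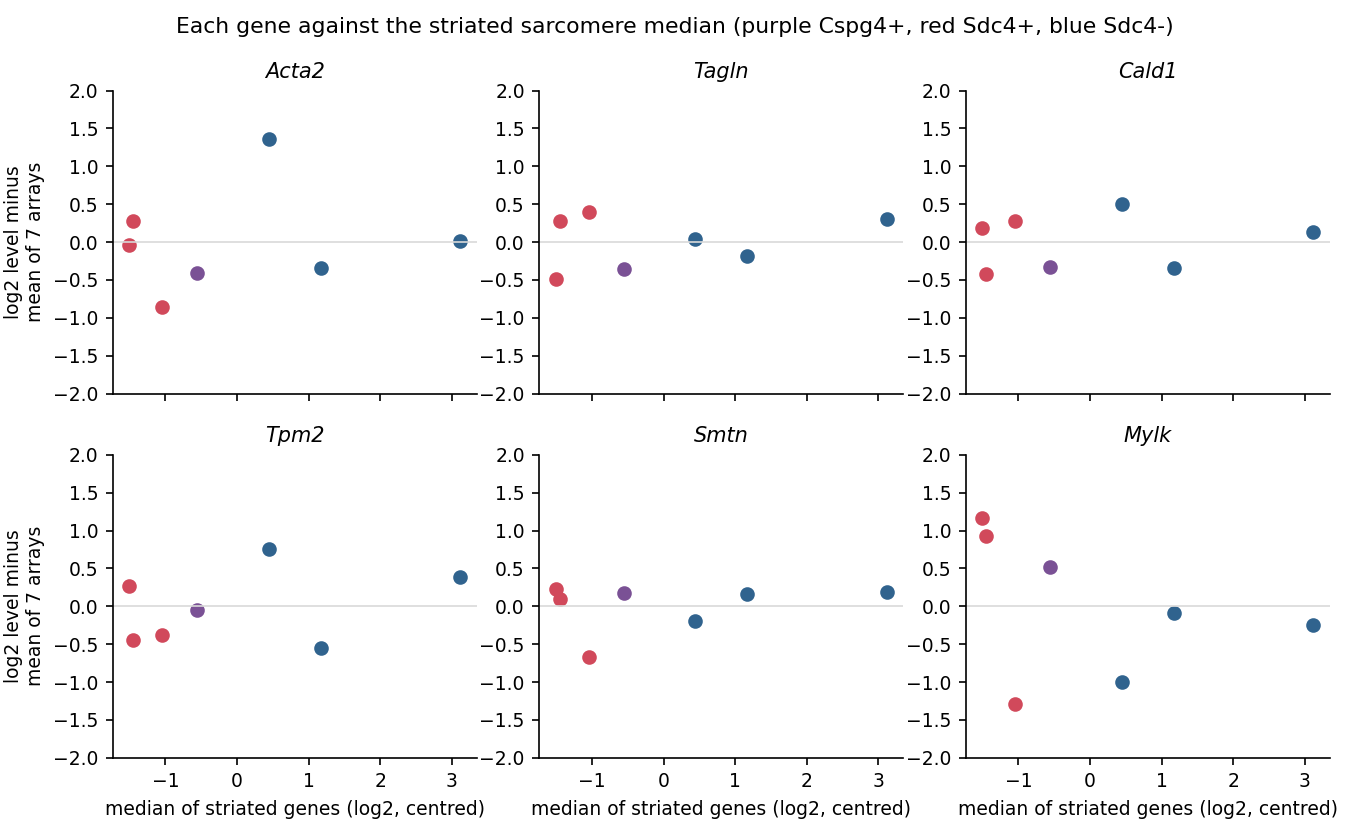
Level of each measured member, centred on its mean over the arrays (log2, vertical axis), against the centred median of 31 striated sarcomere genes (log2, horizontal axis), 1 point per population. The CD1 Sdc4- array lies at 3.12 on the horizontal axis, and Acta2 there is below its value in B195AP+ cells, which lie at 0.44.

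Within each mouse line most striated genes were lower in Sdc4+ cells, and the members differed in mixed direction. Each line has 1 array per side, so these are values with no test. In the Cspg4- line, Mylk was 1.03 higher in Sdc4+ than in Sdc4- cells on the log2 scale, Acta2 0.63 and Tagln 0.47 higher, and Tpm2 (0.10), Smtn (-0.07) and Cald1 (-0.08) were close to 0. In CD1 mice, Mylk had -1.03, Acta2 -0.86, Smtn -0.85 and Tpm2 -0.76, with Cald1 (0.14) and Tagln (0.10) close to 0. Acta2, and Mylk on its first probe, thus had opposite signs in the 2 lines. The second Mylk probe had 0.43 in the Cspg4- line and 0.50 in CD1, the same sign in both.

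Counted past 2-fold, 1 of 6 members (Mylk) was higher in Sdc4+ cells of the Cspg4- line, beside 5.01% of all genes, and 0 were lower, beside 3.73%. In CD1, 1 of 6 (Mylk) was lower, beside 2.69%, and 0 were higher, beside 1.97%. The second Mylk probe passed 2-fold in neither line. The median of the members was 0.28 in the Cspg4- line and -0.81 in CD1, while that of all genes was 0.02 and -0.05. Of the 31 striated genes, 21 in the Cspg4- line and 28 in CD1 were at least 2-fold lower, with medians of -2.97 and -4.34. Most of the 31 passed the filter through the Sdc4- arrays, so these counts are a description. For the 11 above background everywhere, the centred median was -0.62 in Sdc4+ and 0.35 in Sdc4- cells of the Cspg4- line. In CD1 it was -0.53 and 1.69.

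**Figure D4:**
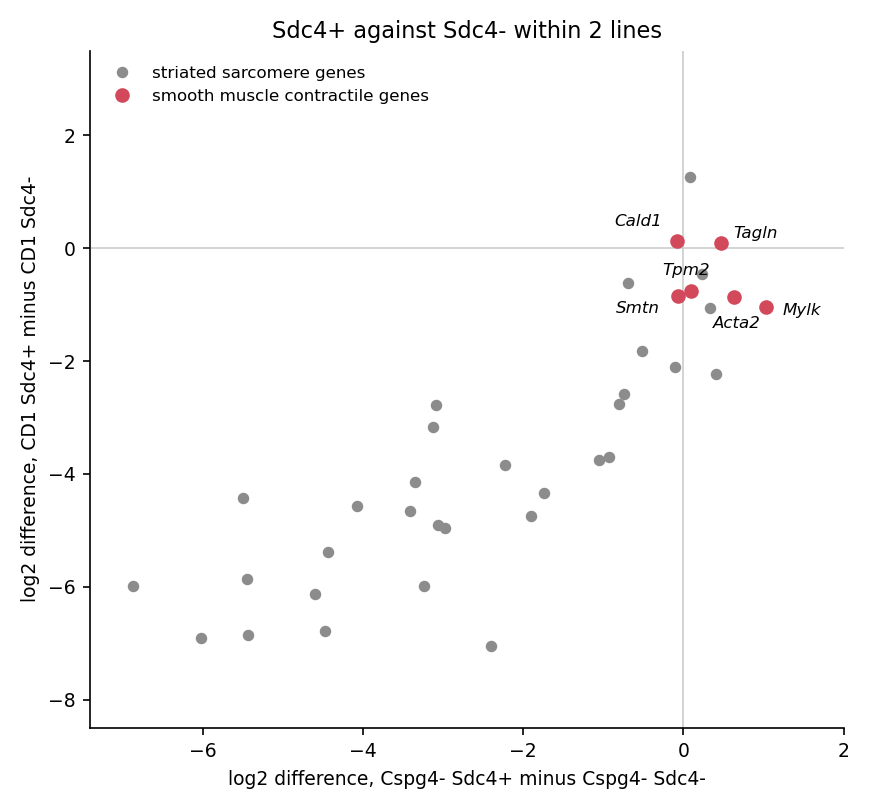
Log2 difference, Sdc4+ minus Sdc4-, in CD1 mice (vertical axis) against the same in the Cspg4- line (horizontal axis), 1 array per side in each. Most striated genes lie far below 0 on both axes, while Acta2 (0.63 and -0.86) and Mylk (1.03 and -1.03) lie right of 0 and below it. Most striated genes shown passed the filter through the Sdc4- arrays. The Mylk values are those of its first probe.

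Cspg4+ cells, labelled through a pericyte gene, were within 2-fold of both Cspg4- populations for the 6 measured contractile genes. Against Cspg4- Sdc4- cells of the same line, the 6 members differed by -0.16 (Tagln) to 0.61 (Mylk), and against Cspg4- Sdc4+ cells by -0.69 (Acta2) to 0.41 (Tpm2). Both comparisons share the Cspg4+ array and have 1 array per side. In neither did any of the 6 pass 2-fold, beside 5.51% and 11.2% of all genes in either direction. Tagln was lower in Cspg4+ cells in both, by 0.16 and 0.63. The striated genes had medians of -1.60 and 1.24 in these comparisons, against 0.01 and -0.17 for the members. Most of these striated genes passed the filter through the Sdc4- arrays, so their medians rest in part on background values. For the 11 above background everywhere, the centred median was -0.59 in Cspg4+ cells. It was 0.35 in Cspg4- Sdc4- and -0.62 in Cspg4- Sdc4+ cells, so the Cspg4+ and Cspg4- Sdc4+ values were close. The Cspg4+ arm is 1 array, so a test takes its spread from the other groups. In limma, against the mean of both Sdc4 groups, 0 of 19761 genes (0%) passed (smallest adjusted p = 0.146) and 1046 or 5.29% had an unadjusted p under 0.05. Acta2 had -0.48, Tagln -0.41, Cald1 -0.39, Tpm2 -0.05, Smtn 0.20 and Mylk 0.61, each with an adjusted p of 1.00. That fit does not match the mouse lines.

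Single populations were then set against the others that share their Sdc4 label. Against the mean of the other Sdc4- cells, B195AP+ cells had Acta2 higher by 1.53, Tpm2 by 0.84 and Cald1 by 0.61, with Tagln at -0.01, Smtn at -0.37 and Mylk at -0.83. Acta2 was the 1 of 6 past 2-fold upward, beside 6.55% of all genes, and the median of all genes was 0.25 there. The striated genes went the other way, with a median of -1.60, and most of them passed the filter through the Sdc4- arrays. For the 11 above background everywhere, the centred median was 0.29 in B195AP+, 0.35 in Cspg4- and 1.69 in CD1 Sdc4- cells. The second Cald1 and Tpm2 probes, outside the streaked region, gave 0.55 and 0.59. Both Mylk spots lie in the streaked region, and the second gave 1.19, opposite in sign to the first. The second Smtn probe, also in that region, gave -2.31.

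Myf5SOR+ cells, against the mean of the other Sdc4+ cells, had Mylk higher by 1.34 and Tpm2 by 0.68, and Tagln lower, with -0.83. Mylk was the 1 of 6 at least 2-fold higher, beside 2.77% of all genes. That value rests on the low CD1 Sdc4+ array (-2.54), since Myf5SOR+ (-0.08) and Cspg4- Sdc4+ (-0.32) cells were close, and the second Mylk probe gave 0.18. Against Cspg4- Sdc4+ cells, CD1 Sdc4+ cells had Mylk at -2.22, Acta2 at -1.13 and Cald1 at 0.69. Mylk and Acta2 are 2 of 6 at least 2-fold lower, beside 5.59% of all genes. The second Mylk probe gave 0.35 for this comparison, opposite in sign to the first. Among Sdc4- cells the same line comparison gave 0.94 for Tpm2, 0.49 for Tagln and 0.48 for Cald1, with none of the 6 past 2-fold in either direction, beside 9.6% of all genes. There 26 of the 31 striated genes were at least 2-fold higher in CD1, beside 5.46% of all genes, with a median of 1.98. Most of the 31 passed the filter through the Sdc4- arrays, so this count is a description. For the 11 above background everywhere, the centred median was 1.69 in CD1 and 0.35 in Cspg4- Sdc4- cells.

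Among the closest relatives of the members, the striated actins had the widest differences, and most non-muscle forms differed little. Of 21 relatives, 16 were tested, 12 were lower and 4 higher, 4 were lower without overlap (9.46% of all genes), and the median was -0.20. Skeletal actin Acta1 averaged -2.06 ± 2.22 in Sdc4+ and 1.70 ± 1.48 in Sdc4- cells (SD, n = 3 each). Acta1 was 13.6-fold and cardiac actin Actc1 31.5-fold lower in Sdc4+ cells, with adjusted p = 0.513 and 0.479. Both were above background on 2 of 3 Sdc4+ arrays, so these folds rest in part on a background value. The cytoplasmic actins Actb and Actg1 differed by 0.15 and 0.05, with 95% intervals of -0.58 to 0.87 and -0.54 to 0.63. Acta2, with -0.55, lay nearer to the cytoplasmic than to the striated actins.

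Among the other relatives, the non-muscle myosins Myh9, Myh10 and Myh14 had differences of -0.05, -0.40 and -1.03, the last 2 without overlap. Calponins Cnn2 and Cnn3, which are not limited to muscle, had -0.45 and -0.22, where Cnn1 was at background. Tropomyosins Tpm1, Tpm3 and Tpm4 had -0.16, -0.08 and -0.19, all closer to 0 than Tpm2. Tagln2 had 0.26 on 6 arrays, its B195AP+ spot having been dropped. The skeletal kinase Mylk2 had 0.41, and Lmod3 of the sarcomere and Smtnl2 had -0.87 and -1.17. Mylk3, Mylk4 and Lmod2 were not well above background on any array. Tagln3 and Smtnl1 were so on the Cspg4+ array alone, where they were at least 2.36-fold and 2.20-fold above the other arrays. That array had 4182 probes, 7.51% of all, above background on it alone, against 0.176% to 0.981% for each of the others.

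Other parts of the smooth muscle machinery had differences between -1.02 and 0.49, except Pdlim3 and Des, which skeletal muscle also uses. Of 29 such genes tested, which include Cnn2, Tpm1 and Tpm4, 21 were lower and 8 higher in Sdc4+ cells, 0 by the adjusted p, with a median of -0.19. Pdlim3, a Z-disc protein of skeletal muscle, was at background on all Sdc4+ arrays and at least 9.10-fold lower there. Desmin (Des), the intermediate filament of both muscle types, was above background on 1 of 3 Sdc4+ arrays and averaged -3.72 ± 0.54 in Sdc4+ and -1.48 ± 1.32 in Sdc4- cells (SD, n = 3 each) without overlap. The collagen-binding integrin Itga1 had a difference of -1.02 and the smooth muscle light chain Myl9 -0.84, both with overlap.

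Of 23 regulators of the smooth muscle and myofibroblast programme on the array, 21 were tested. Of these, 8 were lower and 13 higher in Sdc4+ cells, with a median of 0.12. Myocardin (Myocd) was not well above background on any array and was not tested. Tgfb2, a TGF-beta ligand, averaged 2.52 ± 0.31 in Sdc4+ and 0.91 ± 1.32 in Sdc4- cells (SD, n = 3 each) without overlap, as 6.18% of all genes were on that side, with an adjusted p of 0.551. The TGF-beta feedback inhibitor Smad7 and the factor Klf4, which represses smooth muscle genes, both had 0.80, and the Hippo pathway factor Tead4 had -0.63, all with overlap. Matrix genes of myofibroblasts were split 11 lower to 9 higher among 20, with a median of -0.13. Without overlap, 2 of the 20 were lower, beside 9.46% of all genes, and 2 were higher, beside 6.18%. The matricellular Thbs1 (0.95) was 1 of those higher in Sdc4+ cells without overlap. Periostin (Postn, -1.21) and tenascin C (Tnc, -1.13) were lower with overlap. None of these lists had a gene past the adjusted p.

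Markers of mural cells and of other cell types were present in part. Of 17 mural cell markers 14 were tested, 4 lower and 10 higher in Sdc4+ cells, with Kcnj8 and Vtn at background on every array. Their summed level, in multiples of the array's 75th percentile signal, was 175.4 in Cspg4+, 157.8 to 185.1 in Sdc4+ and 108.3 to 197.0 in Sdc4- cells. Endothelial markers summed to 35.5, 22.4 to 29.5 and 31.9 to 34.9 in the same order, with Tek, Tie1, Emcn and Cldn5 at background. Leukocyte markers summed to 52.2, 45.5 to 69.2 and 46.0 to 75.4 with Ptprc and Lyz2 at background, and keratinocyte markers to 7.33, 6.53 to 8.11 and 7.27 to 9.68 with Krt1 and Dsg3 at background. Each sum adds signals of different probes and rests largely on its brightest gene: Ndufa4l2 made up 32.5% to 60.2% of the mural sum, Kdr 54.7% to 66.4% of the endothelial, Itgam 61.9% to 89.5% of the leukocyte and Trp63 53.3% to 82.6% of the keratinocyte sum. The part of these cells in the members' levels was not tested.

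The upstream sequences of 7 of the 10 members are in the RefSeq promoter table (GRCm38.p6, 250 bases before to 50 after a gene's start). Actg2, Tagln and Myh11 were not matched there. Both strands were searched for the CArG box, a motif of 10 letters with CC at 1 end, GG at the other and 6 inner positions of A or T. An exact box stood in 0 of the 7 members, in 6 of 32 striated genes (18.8%), in 7 of 31 other genes of the smooth muscle apparatus (22.6%) and in 1.81% of all genes in the table. With 1 inner position free, 1 of 7 members (Acta2), 10 of 32 striated genes, 9 of 31 other apparatus genes and 11.3% of all genes had a match. Acta2 is shown beside the striated actins because these actins differ in the arrays, with the box in capitals in a window of 60 bases on the minus strand.
Acta2 first window, chr19:34255423-34255482: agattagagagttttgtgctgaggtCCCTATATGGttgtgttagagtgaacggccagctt
Acta2 second window, chr19:34255373-34255432: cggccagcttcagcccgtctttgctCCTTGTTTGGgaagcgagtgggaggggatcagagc
Acta1 window, chr8:123894814-123894873: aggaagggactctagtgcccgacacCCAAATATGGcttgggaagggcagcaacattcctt
Actc1 window, chr2:114052888-114052947: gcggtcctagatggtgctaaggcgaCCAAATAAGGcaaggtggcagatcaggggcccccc
The Acta2 boxes begin at -84 and -34 relative to the start and have 5 of the 6 inner positions as A or T. The Acta1 and Actc1 boxes shown, at -73 and -47, have all 6. Boxes with 5 of 6 also stand in Acta1 at -154 and -205 and in Actc1 at -87, -138 and -175, and are not shown. The Actc1 box at -175 has the same letters as the Acta2 box at -84, so these actins do not part by kind of box alone. A match describes letters only, and no measurement here bears on what binds them.

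Genes whose profile over the 7 arrays was most like that of Acta2, among 16321 above background everywhere, included Yipf6 (r = 0.99), Cox7c, Timm44 and Rps27l (r = 0.97 to 0.98). For the mean centred profile of the 6 measured members they were Pigt (r = 0.99), Wdr83, Sec61g, Rnf165, Ier3ip1 and Rpl22l1, with 4 of the top 10 lacking a plain symbol. With 7 points such values are common: 178 genes had r of at least 0.9 with Acta2 and 63 with the mean profile. None of the named genes is in the striated list.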

How the data were processed

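Each of the 7 populations was measured on 1 Agilent SurePrint G3 mouse array. The deposited scanner files hold spot intensity in 1 channel, which per the file headers was background subtracted by Feature Extraction 11.5.1.1, with probes placed on mm9. The deposited series table holds log2 values, and lumi, with no version, is named in the submitters' processing notes. Medians of the table's columns were 5.15 to 5.17 and their ranks followed the scanner values, while the centring is unknown, so the table served as an alternative.

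Processed intensity was taken to log2 relative to the 75th percentile of its array. Control and outlier spots were left out, spots of a probe were averaged, and probes called well above background on 3 or more of the 7 arrays were tested, with 1 probe per gene (the highest mean). The fit used limma 3.58.1 in R 4.3.3 with 3 group means, Benjamini-Hochberg adjustment over 19761 genes and a threshold of 0.05. Its code was run on simulated data with planted changes. Those changes were larger than the members' differences, their spread was smaller, and they held no effect of line. That run therefore does not bear on the power for the members. Line was left out of the fit and used as an alternative block. A bound ("at least") sets the bright mean against the higher of the dim probe's level and the lowest well above background on each array. Of the other columns holding samples' values, 0 were unmapped. Precision is limited by the 7 arrays.

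The members and gene lists were chosen with earlier results of these data known. Genes named outside the members and their relatives are up to 4 per list with the largest difference among those past the filter, and the 5 and 10 genes most like Acta2 and the mean profile. Some genes that this rule selects are not reported here.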

Additional observations from a re-analysis of the deposited data

Results flagged for a closer look

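For 4 members the difference between Sdc4+ and Sdc4- cells had opposite signs in the 2 mouse lines that hold both, and the difference between lines was not tested, since each rests on 1 array per side. Acta2 had 0.63 in the Cspg4- line and -0.86 in CD1 on the log2 scale. Mylk had 1.03 and -1.03 on its first probe, while its second probe had 0.43 and 0.50. Tpm2 had 0.10 and -0.76, and its second probe 0.21 and -0.72. Cald1 had -0.0789 and 0.136, and its second probe -0.13 and 0.24. The typical SD between repeated spots gives 0.0961 for such a difference, which leaves out the spread between animals.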

How the results depend on the processing

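No member passed the adjusted p in any of the 17 alternatives for Sdc4+ against Sdc4-, and the member median stayed between -0.26 and -0.01. Genes called over the whole array numbered 5 with line as a random block (consensus correlation 0.588; Myh3 lower, and Fcgr3, Ifitm10, Tchhl1 and an unnamed transcript higher), and 0 to 1 when 1 array was left out, the 1 being an unnamed probe without the CD1 Sdc4- array. These genes are named after their values were seen. The striated median was -1.25 with normexp, -1.88 with no filter and -1.04 for genes above background on 7 arrays, and lay between -3.71 and -2.36 with 1 array left out. The member median in CD1 was -0.58 with normexp, -0.63 in the series table, -0.60 with no filter and -0.50 with the mean of probes. With no filter it was 0.42 in the Cspg4- line, 0.35 for Cspg4+ minus Cspg4- Sdc4- and 0.0507 for Cspg4+ minus Cspg4- Sdc4+ cells, a change of sign there, and 0.10 with the mean of probes, where Mylk had 0.0687.

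Some signs turned for Sdc4+ minus Sdc4-. With the mean of probes Smtn had 0.10. With line as a fixed block Cald1 had 0.0287, and Mylk, 0.72 without a block, had -0.0027, and without the streaked region Cald1 had 0.12. With 1 array left out Cald1 ran from -0.31 to 0.13, Smtn from -0.34 to 0.11 and Tagln from -0.16 to 0.29. Acta2 had -0.04 to -0.89 there, with -0.04 when the B195AP+ array was left out. For Cspg4+ against the rest, Tpm2 had 0.30 with the random block, 0.46 with the fixed block, 0.0891 without the streaked region and -0.24 to 0.0891 with 1 array left out, and Cald1 had 0.0491 with the fixed block. The cause of these changes was not tested. The scaling by probes detected on all arrays was chosen after seeing the data. No paired analysis was possible because the labels number every array as replicate 1, as far as replicate numbers go. The line blocks above pair the Cspg4 and CD1 arrays by mouse line instead.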
